A study of Homo sapiens with 4 samples.

Results

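Most of the genes described here encode the Golgi enzymes that build mucin-type O-glycans and cap them, and other glycans, with sialic acid or fucose. They were taken by name as the protein-coding genes of the GALNT, GCNT, B3GNT, ST3GAL, ST6GAL, ST6GALNAC and FUT series, with C1GALT1 and its chaperone gene C1GALT1C1 added. These rules gave 58 of the 62710 genes in the table, among 19855 that GENCODE 29 calls protein-coding. FUT10 and FUT11, which RefSeq names POFUT3 and POFUT4, and GCNT7, a pseudogene in RefSeq, were kept because they match the rules. A further 16 names matched the patterns without being protein-coding and were left out. Their levels were read in HGC27 cells, a line from an undifferentiated human gastric cancer, and MKN45 cells, a line from a poorly differentiated gastric adenocarcinoma. Each line was grown in serum-containing medium and exposed for 24 h to 0.3 µM periplocymarin, a plant cardiac glycoside that blocks the Na,K-ATPase, or to 0.1% DMSO, called vehicle below. Each line and treatment was sequenced once, giving 4 messenger RNA libraries, and each line is an established culture whose number of separate dishes the labels do not give. The 2 lines are therefore the only units that repeat the treatment, and differences inside 1 line carry no replicate error.

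Mucin-type O-glycosylation begins when a polypeptide GalNAc-transferase (the GALNT enzymes) places N-acetylgalactosamine on a serine or threonine, a structure known as the Tn antigen. C1GALT1, the T-synthase, adds galactose to make core 1, and it folds only with the help of C1GALT1C1 (Cosmc), a chaperone of the endoplasmic reticulum. GCNT enzymes branch core 1 into core 2 and related structures, B3GNT enzymes start and extend longer chains, and the sialyltransferases and fucosyltransferases finish the chain ends with sialyl-Tn, sialyl-T, H and Lewis-type structures. In the stomach these glycans cover secreted and membrane mucins, and truncated or sialylated forms are well-known tumour antigens.

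The sequences just before the first RefSeq start of 5 genes are shown because the treatment results turn on them: GALNT12, C1GALT1C1 and FUT1 passed the test over both lines, and GCNT3 and ST6GAL1 were the members with the largest differences in MKN45. All are RefSeq promoter windows of GRCh38.p14, cut to the stretch outside every GENCODE 29 exon and written 5′ to 3′ on the gene's own strand. The GCNT3 stretch ends 1 base before its RefSeq start (chr15:59611783), which lies inside the longer GENCODE 29 gene model. Capitals mark a GC box (GGGCGG or its reverse complement), an ATF4-type element (TGATGNAA) or an HNF1-type element (GTTAAT), on either strand.
GALNT12, chr9:98807565-98807669, plus strand: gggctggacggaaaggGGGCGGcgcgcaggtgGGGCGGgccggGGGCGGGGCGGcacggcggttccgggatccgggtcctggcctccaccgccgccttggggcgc
C1GALT1C1, chrX:120630151-120630304, minus strand: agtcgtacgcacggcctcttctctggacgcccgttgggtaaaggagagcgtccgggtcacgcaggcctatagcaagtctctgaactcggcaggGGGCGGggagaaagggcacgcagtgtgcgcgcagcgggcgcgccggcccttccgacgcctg
FUT1, chr19:48755391-48755558, minus strand: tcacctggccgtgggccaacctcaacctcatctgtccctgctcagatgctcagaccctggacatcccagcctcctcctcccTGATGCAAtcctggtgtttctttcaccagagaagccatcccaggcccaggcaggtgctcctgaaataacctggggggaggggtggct
GCNT3, chr15:59611677-59611782, plus strand: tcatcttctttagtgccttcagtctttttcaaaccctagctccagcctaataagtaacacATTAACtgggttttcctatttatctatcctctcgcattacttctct
ST6GAL1, chr3:186930315-186930484, plus strand: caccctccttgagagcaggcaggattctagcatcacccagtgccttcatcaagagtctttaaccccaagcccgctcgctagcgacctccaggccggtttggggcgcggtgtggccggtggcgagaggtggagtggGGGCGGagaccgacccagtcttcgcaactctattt

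The 5 windows did not look alike. The 105 bases shown for GALNT12 held 4 GC boxes, of which the last 2 overlap, and those shown for C1GALT1C1 and ST6GAL1 held 1 each. In the whole 250 bases the numbers were 4 for GALNT12, 4 for C1GALT1C1 and 2 for ST6GAL1, so the printed stretches differ partly by where they were cut. The GCNT3 stretch had no GC box and 1 HNF1-type element, and the FUT1 stretch had no GC box and 1 ATF4-type element. In the whole 250 bases before the first listed start, G and C made up 67.2% for GALNT12, 71.6% for C1GALT1C1, 65.6% for ST6GAL1, 58.4% for FUT1 and 40.4% for GCNT3. The median was 66.8% over the 43 members with a RefSeq window and 58.0% over all 27305 genes with one. Those 27305 genes were not limited to protein-coding ones, as the members were, so the 2 medians come from unlike sets.

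Over those 43 members, 27 windows held a GC box (62.8%, against 42.3% of all windows). A CRE (TGACGTCA) was found in 1 member window (2.33%, against 1.77%), an E-box (CACGTG) in 3 (6.98%, against 6.49%), an AP-1 site (TGANTCA) in 2 (4.65%, against 6.60%) and the HNF1-type element in 2 (4.65%, against 6.22%). The ATF4-type element was searched after the FUT1 letters had been read, and it lay in 2 member windows, FUT1 and FUT8 (4.65%, against 3.19%). A match describes the letters in the window and not a bound site. The shares over protein-coding genes alone are not given, so nothing particular to these enzymes is read from the motif shares.

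Levels are given as FPKM, reads scaled to gene length and library size. The reads recovered from the steps between low FPKM values came to 26866615 in vehicle HGC27, 24934722 in treated HGC27, 36597431 in vehicle MKN45 and 27689378 in treated MKN45. The 2 lines differed in defining markers: 6 of 6 epithelial markers reached 1 FPKM in each MKN45 library (sums 1622 and 2902 FPKM), and 0 of 6 in each HGC27 library (0.699 and 0.444). Of 8 gastric markers, 3 reached 1 FPKM in MKN45 (TFF1, TFF2 and MUC5AC, with MUC6, GKN1 and GKN2 at 0), and 0 did in HGC27. Of 4 intestinal markers, 3 reached 1 FPKM in each MKN45 library and 0 in each HGC27 library. Of 4 mesenchymal markers, 3 reached 1 FPKM in each HGC27 library, with CDH2 below it, and 0 did in MKN45. Among them vimentin was at 406 and 379.6 in HGC27 and 0.346 and 0.446 FPKM in MKN45. The part of this marker difference in the results that follow was not tested, and in a bulk culture fewer cells with an RNA and less of it per cell cannot be told apart.

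Of the 58 enzymes, 42 reached 1 FPKM in at least 1 library, 16 stayed below it in all 4, and GALNT15, GCNT7 and ST6GAL2 were at 0 throughout. Vehicle HGC27 had 26 enzymes at 1 FPKM or more and treated HGC27 had 23, and vehicle and treated MKN45 had 34 and 31. Levels of 10 FPKM or more were reached by 2 and 4 enzymes in HGC27 and by 13 and 12 in MKN45. The plot of levels by library shows these enzymes family by family.

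**Figure D1:**
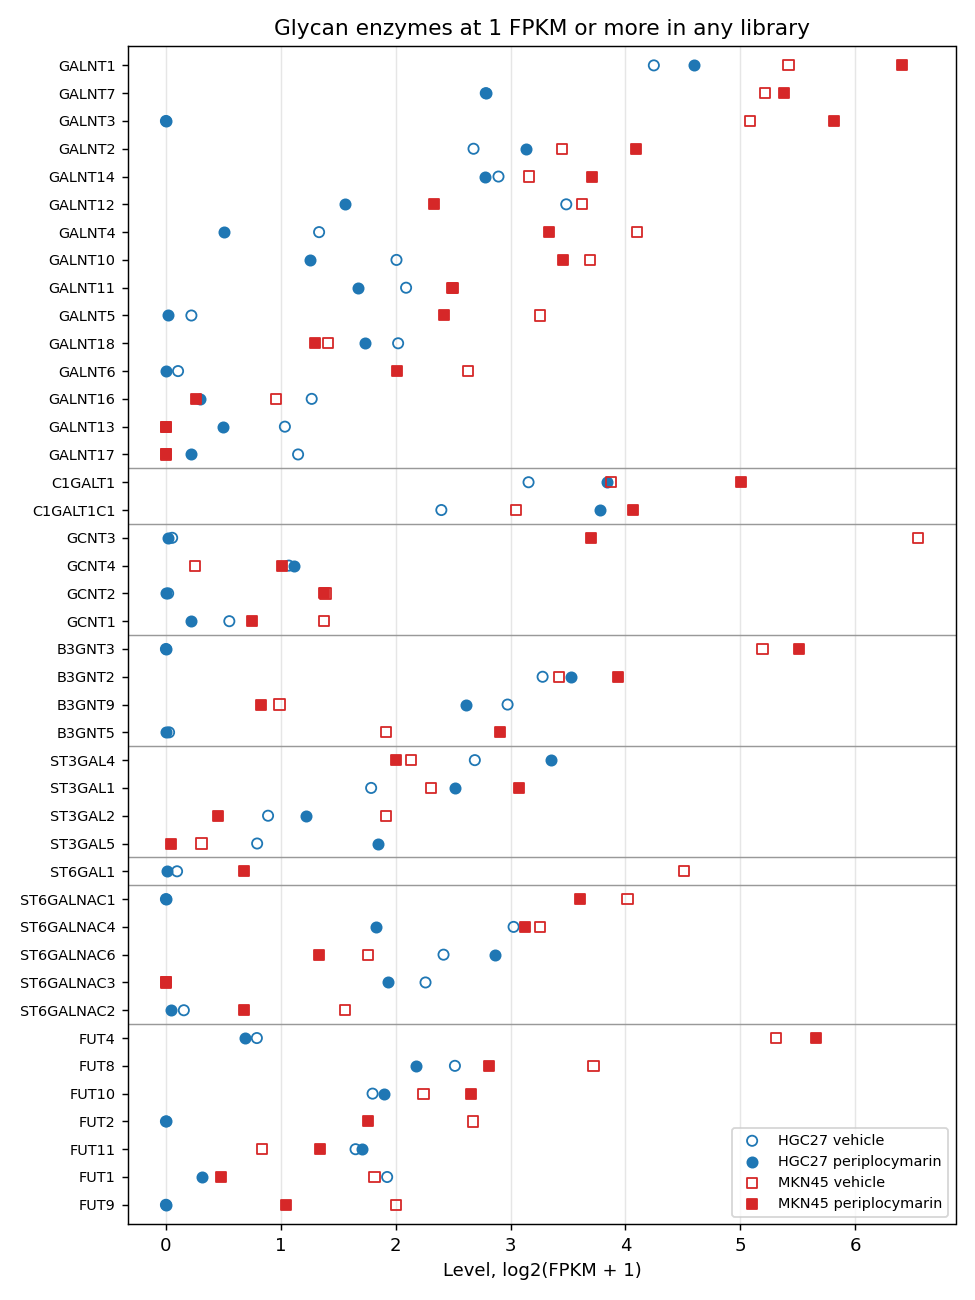
Level of each of the 42 enzymes at 1 FPKM or more in any library, as log2(FPKM + 1), grouped by family, with 1 point per library (HGC27 circles, MKN45 squares, open for vehicle and filled for periplocymarin). GALNT3, B3GNT3, GCNT3, FUT4 and ST6GALNAC1 lie at or near 0 in both HGC27 libraries and high in both MKN45 libraries.

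More of the enzymes differed between the lines than with treatment, and the same held for all genes tested (36.0% and 6.78%). In a limma-trend fit of log2(FPKM + 1) over the 4 libraries with line and treatment as terms, 22 of the 34 enzymes that could be tested differed between lines at a Benjamini-Hochberg adjusted p under 0.05, beside 36.0% of all 12373 genes tested. MKN45 was higher for 18 of them (background 19.6%) and HGC27 for 4 (background 16.4%). The filter on low levels favours part of that count: 12 of the enzymes averaged 1 FPKM or more in MKN45 alone and 2 in HGC27 alone, and they entered the test through the line where they are high. All 14 were called, and so were 78.6% of all genes measured in MKN45 alone and 76.3% of those in HGC27 alone, so nothing is read from their number. Among the 20 enzymes measured in both lines, 8 differed, 6 higher in MKN45 and 2 higher in HGC27 (40.0%, beside 26.1% of the 9989 genes measured in both). Of those 9989 genes, 1453 (14.5%) were called higher in MKN45 and 1156 higher in HGC27. Without the treatment block the count of all enzymes called was 14, with the calls of GALNT1, GALNT2, C1GALT1, ST3GAL4, ST6GAL1, ST6GALNAC6, FUT8 and FUT9 lost. With no filter on low levels it was 7, and the calls left were those of GALNT3, GALNT4, GALNT5, GALNT7, B3GNT3, ST6GALNAC1 and FUT4. Over all 12373 genes, 847 were called higher in HGC27 and 1131 lower without the block. Without the filter the numbers were 440 and 647 of 32364 genes.

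Among the initiating enzymes, GALNT3 (chr2:165747591-165794682), an epithelial GalNAc-transferase, was at 0 in both HGC27 libraries and at 33.0 and 55.4 FPKM in vehicle and treated MKN45. GALNT1 (chr18:35581117-35711834), a widely expressed GalNAc-transferase and the highest of the family, was at 18.0 and 23.2 in HGC27 and 41.8 and 84.2 FPKM in MKN45. GALNT7, which acts on peptides that already carry a GalNAc, was at 5.89 and 5.91 in HGC27 and 36.1 and 40.6 FPKM in MKN45. GALNT1 and GALNT7 were measured in both lines, and GALNT3 entered the test through MKN45 alone, where it is high. The fitted HGC27 minus MKN45 differences were -5.45 ± 0.31 for GALNT3, -1.49 ± 0.29 for GALNT1 and -2.51 ± 0.28 for GALNT7 (SE, limma on log2(FPKM + 1)).

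GALNT4, GALNT5, GALNT6, GALNT10 and GALNT2 were also higher in MKN45, with fitted differences from -0.86 for GALNT2 to -2.80 for GALNT4. GALNT10 and GALNT2 were measured in both lines. GALNT4, GALNT5 and GALNT6 entered the test through MKN45 alone, where they are high. The GALNT2 call was lost when libraries were scaled to read totals alone. GALNT11, GALNT12, GALNT14 and GALNT18, also GalNAc-transferases, did not pass the line test, with fitted differences of -0.61, -0.46, -0.60 and 0.52. GALNT13 and GALNT17, which are best known from the nervous system, were above 1 FPKM in vehicle HGC27 alone (1.05 and 1.22 FPKM) and at 0 in both MKN45 libraries.

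C1GALT1 (chr7:7156934-7248651), the T-synthase, was at 7.92 and 13.3 in HGC27 and 13.7 and 31.2 FPKM in MKN45. Its fitted line difference was -0.95 ± 0.29 (limma, Benjamini-Hochberg adjusted p = 0.0278), although the treated HGC27 library nearly reached the vehicle MKN45 library. That call was lost without the treatment block (limma adjusted p = 0.294) and without the low-value filter (limma adjusted p = 0.125). The chaperone gene C1GALT1C1 did not pass the line test (fitted difference -0.47 ± 0.29).

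GCNT3 (chr15:59594875-59640239), the mucin-type branching enzyme that makes core 2 and core 4, was at 0.0383 and 0.0131 in HGC27 and 92.5 and 12.0 FPKM in MKN45. In vehicle MKN45 it was the most abundant of all 58 enzymes and made up 96.4% of the summed FPKM of its family. GCNT1, another core 2 enzyme, stayed between 0.165 and 1.60 FPKM, and GCNT2, the I-branching enzyme, was at 1.62 and 1.59 FPKM in MKN45 and below 0.1 in HGC27. GCNT3 overlaps GTF2A2 on the opposite strand, and whether reads were assigned by strand is not given in the sources used here.

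Among the extending enzymes, B3GNT3 (chr19:17794828-17813082), which elongates core 1, was at 0 in both HGC27 libraries and at 35.6 and 44.7 FPKM in MKN45. B3GNT5, the lactotriaosylceramide synthase of glycolipids, was at 0.0191 and 0 in HGC27 and 2.77 and 6.50 FPKM in MKN45. B3GNT2, the main poly-N-acetyllactosamine synthase, was at 8.71 and 10.5 in HGC27 and 9.73 and 14.3 FPKM in MKN45. B3GNT3 and B3GNT5 entered the line test through MKN45 alone, where they are high. B3GNT2, measured in both lines, did not pass it, with a fitted difference of -0.28 ± 0.28. B3GNT9 went the other way, at 6.86 and 5.12 FPKM in HGC27 against 0.984 and 0.776 in MKN45.

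Some of the chain-end enzymes reached 1 FPKM in MKN45 alone or in HGC27 alone. ST6GALNAC1 (chr17:76624761-76643838), the sialyl-Tn synthase, was at 0 in both HGC27 libraries and at 15.2 and 11.2 FPKM in MKN45. ST6GALNAC3, which sialylates the inner GalNAc of short sialylated chains, was at 0 in both MKN45 libraries and at 3.79 and 2.82 FPKM in HGC27. ST6GAL1 (chr3:186930485-187078553), the alpha2,6-sialyltransferase of N-glycans, was at 0.0695 and 0.00762 in HGC27 and 21.8 and 0.602 FPKM in MKN45. So the sialyl-Tn synthase was detected in MKN45 and ST6GALNAC3 in HGC27, with no reads of either in the opposite line. ST6GALNAC1 and ST6GAL1 entered the line test through MKN45 alone and ST6GALNAC3 through HGC27 alone, where each is high. Other chain-end enzymes, measured in both lines, had no line call: ST3GAL1, ST3GAL2, ST6GALNAC4, FUT1, FUT10 and FUT11.

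ST3GAL4, an alpha2,3-sialyltransferase of galactose-ended chains, was at 5.45 and 9.19 in HGC27 and 3.38 and 3.02 FPKM in MKN45, with a fitted line difference of 0.95 ± 0.31 (limma, Benjamini-Hochberg adjusted p = 0.0388). ST6GALNAC6, which sialylates gangliosides and Lewis-type chains, was at 4.34 and 6.27 in HGC27 and 2.38 and 1.52 FPKM in MKN45, a fitted difference of 1.09 ± 0.32. Both calls were lost without the treatment block (limma adjusted p = 0.154 for ST3GAL4 and 0.1 for ST6GALNAC6). They were also lost without the low-value filter (limma adjusted p = 0.186 and 0.168).

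FUT4 (chr11:94543840-94549898), an alpha1,3-fucosyltransferase that makes Lewis x, was at 0.731 and 0.611 in HGC27 and 38.7 and 49.7 FPKM in MKN45, and it supplied 58.1% and 74.9% of the summed FUT level there. FUT4 shares its locus and strand with a PIWIL4 gene model, so its reads could be split by the counting. FUT2, the secretor alpha1,2-fucosyltransferase, was at 5.39 and 2.38 FPKM in MKN45 and at 0 in HGC27, and FUT9, another Lewis x enzyme, at 3.01 and 1.07 FPKM against 0. FUT8, the core fucosyltransferase of N-glycans, was at 4.72 and 3.52 in HGC27 and 12.2 and 6.01 FPKM in MKN45, and its line call was lost when libraries were scaled to read totals alone. FUT3, FUT5, FUT6 and FUT7 were below 1 FPKM in all 4 libraries.

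**Figure D2:**
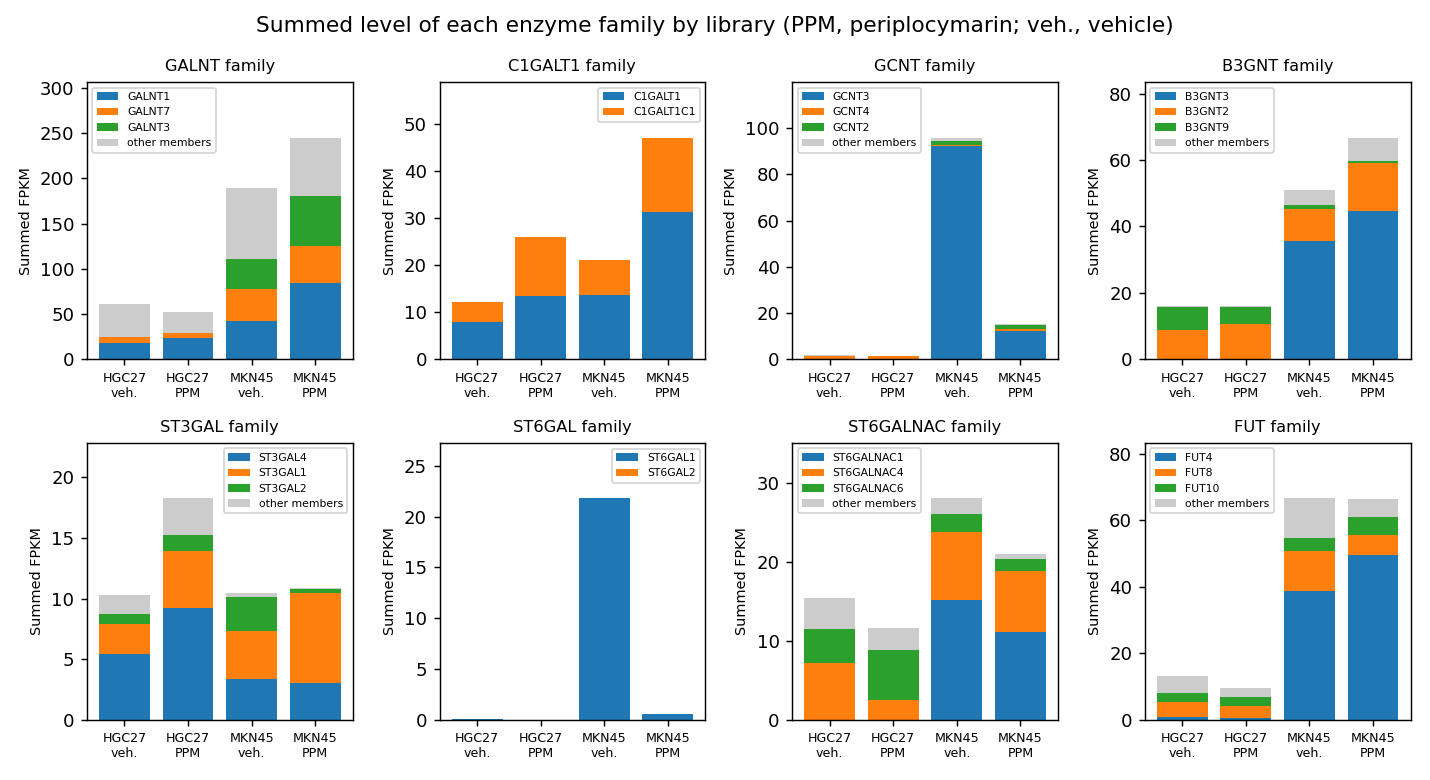
Summed FPKM of each enzyme family in the 4 libraries, with 1 bar per library stacked by the 3 members with the highest sums and the other members in grey. The GCNT bars of MKN45 stand at 95.9 and 15.3 FPKM, mostly GCNT3, and the C1GALT1 bar is taller after periplocymarin in both lines (12.2 and 26.0 FPKM, then 21.0 and 47.0 FPKM).

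In the vehicle libraries alone, with 1 library per line and no test, 20 of 37 measured enzymes differed by at least 1 on the log2(FPKM + 1) scale, beside 31.6% of all measured genes. Of these, 18 were higher in MKN45 (background 17.4%) and 2 in HGC27, B3GNT9 and ST6GALNAC3 (background 14.3%). Many of them counted as measured only through 1 line, which favours a large difference, so nothing is read from that count. Of the 19 enzymes at 1 FPKM or more in both vehicle libraries, 5 differed that far (26.3%, beside 20.2% of all such genes). They were GALNT1, GALNT4, GALNT7, GALNT10 and FUT8, all higher in MKN45. Of all such genes, 11.8% were that far higher in MKN45 and 8.48% in HGC27. These shares were not tested, so nothing is read from them. The 20 include ST3GAL2, which had no line call over both treatments, and ST6GALNAC2, which was too low over the 4 libraries to be tested.

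Few of the enzymes passed the test for periplocymarin over both lines. In the same limma fit, 3 of the 34 tested enzymes changed at a Benjamini-Hochberg adjusted p under 0.05, beside 6.78% of all genes tested: C1GALT1C1 rose (background 3.49% for rises), and GALNT12 and FUT1 fell (background 3.29% for falls). A count of 3 is near that background. The median fitted change was -0.18 over the 34 enzymes and 0.06 over all 12373 genes, with 16 enzymes above 0 and 18 below. Of the 34, 12 were measured in MKN45 alone and 2 in HGC27 alone. In them the low line adds little change on this scale, so a response in 1 line could be missed. With 1 residual degree of freedom the fit leans on the spread shared across genes. A simulated 2-fold change, the same in both lines, was called in 65 of 200 genes. A change of that size could therefore often be missed. All 3 calls were lost without the line block (limma, Benjamini-Hochberg adjusted p = 0.83 for each) and when no gene was filtered for low levels (0.346 for each).

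GALNT12 (ENSG00000119514, chr9:98807699-98850081), a GalNAc-transferase of the digestive tract, was at 10.2 FPKM in vehicle and 1.94 FPKM in treated HGC27. In MKN45 it was at 11.3 FPKM in vehicle and 4.04 FPKM after treatment. Both treated libraries lay below both vehicle libraries, and the 2 vehicle levels were close to each other. The enzyme was 5.24-fold lower in HGC27 and 2.8-fold lower in MKN45, and the fitted change over both lines was -1.61 ± 0.30 on the log2(FPKM + 1) scale (limma, Benjamini-Hochberg adjusted p = 0.0253). The reads behind these levels were 1041 and 145 in HGC27 and 1318 and 305 in MKN45, and the 95% counting intervals of the log2 FPKM ratio ran from -2.65 to -2.14 and from -1.67 to -1.30. GALNT12 kept its call under quantile normalization, library totals and limma-voom.

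FUT1 (ENSG00000174951, chr19:48748011-48755390), the alpha1,2-fucosyltransferase that makes the H antigen, was at 2.80 FPKM in vehicle and 0.244 FPKM in treated HGC27. In MKN45 it was at 2.52 and 0.396 FPKM. The vehicle levels of the lines were again close, and both treated libraries were far lower, resting on 25 and 41 reads against 392 and 403. FUT1 was 11.4-fold lower in HGC27 and 6.36-fold lower in MKN45, the lowest log2 FPKM ratio of any measured enzyme in HGC27 (-3.52, 95% counting interval -4.16 to -2.93). The fitted change was -1.47 ± 0.32 (limma, Benjamini-Hochberg adjusted p = 0.0328), a scale that understates low genes, and after quantile normalization it missed the threshold at an adjusted p of 0.0688.

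FUT1 lies head to head with FGF21, a secreted metabolic hormone gene, with 168 bases between the gene models, which are the bases printed above. FGF21 (chr19:48755559-48758333, plus strand) was at 28.5 and 8.40 FPKM in vehicle and treated HGC27 and at 0.362 and 0 FPKM in MKN45. It was thus lower after treatment in HGC27, a difference of -1.65 on the log2(FPKM + 1) scale, and below 1 FPKM in both MKN45 libraries. Whether the FUT1 and FGF21 levels are linked was not tested. FUT2, the secretor enzyme on the same chromosome, had no reads in HGC27 and was 2.26-fold lower in treated MKN45 (5.39 and 2.38 FPKM). Its fit over both lines gave no call (-0.46 ± 0.35), but that fit includes HGC27 at 0 and cannot show a response there.

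C1GALT1C1 (ENSG00000171155, chrX:120625793-120630150), the Cosmc chaperone, was at 4.27 FPKM in vehicle and 12.7 FPKM in treated HGC27. In MKN45 it was at 7.26 and 15.8 FPKM. Both treated libraries lay above both vehicle libraries. It was 2.98-fold higher in HGC27 and 2.18-fold higher in MKN45, with a fitted change of 1.20 ± 0.29 (limma, Benjamini-Hochberg adjusted p = 0.0412). That call was lost under quantile normalization (adjusted p = 0.0574) and with limma-voom on recovered reads (adjusted p = 0.0589), where the fitted changes were 1.06 and 1.32.

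C1GALT1, the enzyme that this chaperone folds, was 1.68-fold higher in treated HGC27 and 2.27-fold higher in treated MKN45, and its fitted change of 0.91 ± 0.29 did not pass the threshold (limma, Benjamini-Hochberg adjusted p = 0.0799). It passed when only genes averaging 10 FPKM or more were tested (limma adjusted p = 0.0168) and with limma-voom (adjusted p = 0.0458). The summed level of the T-synthase and its chaperone was 12.2 in vehicle and 26.0 in treated HGC27, and 21.0 and 47.0 FPKM in MKN45, log2 ratios of 1.10 and 1.16. Scaling to read totals alone moved the median difference of all genes by -0.28 in HGC27 and -0.18 in MKN45, and under it the MKN45 differences on the log2(FPKM + 1) scale went below 1 for both genes, to 0.91 for C1GALT1 and 0.81 for C1GALT1C1.

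The other GalNAc-transferases had no call over both lines. GALNT1 was 1.29-fold higher in HGC27 and 2.01-fold higher in MKN45 after treatment (fitted change 0.67 ± 0.29, adjusted p = 0.167 in limma with Benjamini-Hochberg adjustment). GALNT2, a widely expressed initiator, was 1.44-fold and 1.62-fold higher, and GALNT4, which glycosylates partly glycosylated peptides, was 3.64-fold and 1.78-fold lower, both without a call, although GALNT4 was called lower with library totals alone. The GALNT family as a whole summed to 60.8 FPKM in vehicle and 51.8 FPKM in treated HGC27 and to 189 and 245 FPKM in MKN45. Within those sums GALNT1 supplied 29.6% and 44.8% in HGC27 and 22.1% and 34.4% in MKN45, and GALNT12 moved the opposite way. GALNT4 shares reads with the POC1B-GALNT4 read-through model and is uncertain.

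Within HGC27, without a test, 5 of 24 measured enzymes differed by at least 1 on the log2(FPKM + 1) scale, beside 20.1% of all measured genes. C1GALT1C1 and ST3GAL5 were higher (background 9.72%) and GALNT12, FUT1 and ST6GALNAC4 were lower (background 10.4%). Within MKN45 the number was 7 of 35, beside 17.2% of all measured genes. C1GALT1 and C1GALT1C1 were higher (background 8.21%) and GALNT12, FUT1, GCNT3, ST3GAL2 and ST6GAL1 were lower (background 8.94%). The shares of enzymes past that difference, 20.8% and 20.0%, were near the background in both lines. A difference of 1 on this scale asks for more than 2-fold in FPKM, most of all in low genes, so GALNT10 in HGC27 (2.18-fold lower) and GALNT1 in MKN45 (2.01-fold higher) are not counted. The median difference was 0.05 over the enzymes and 0.11 over all genes in HGC27, and -0.12 and 0.07 in MKN45.

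**Figure D3:**
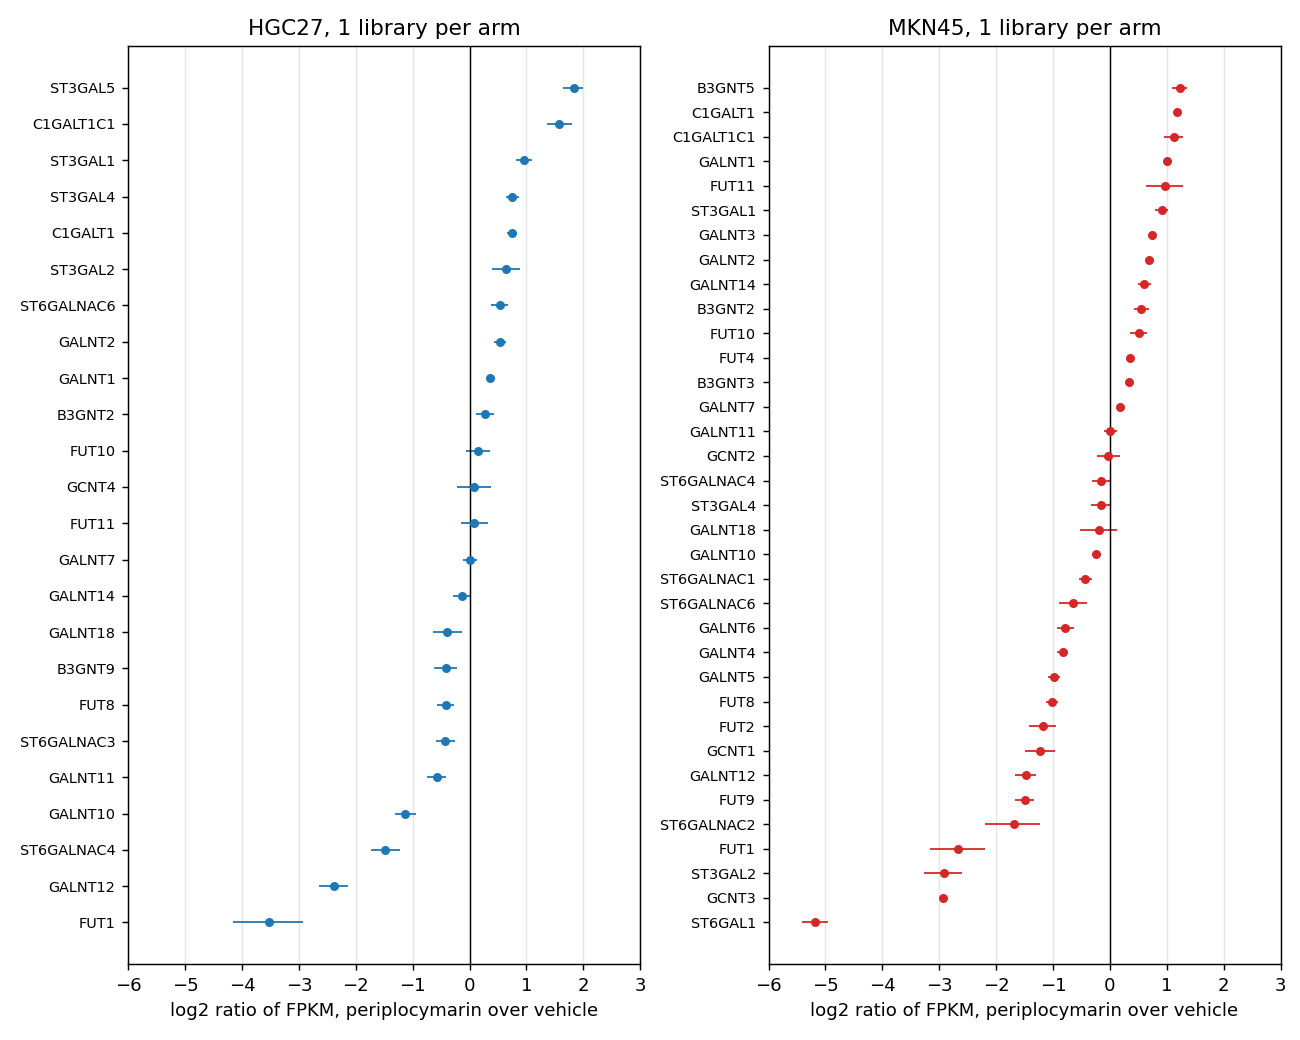
Log2 ratio of FPKM, periplocymarin over vehicle, for the 24 enzymes measured in HGC27 and the 35 in MKN45, with 1 library per arm and bars for the 95% counting interval of the recovered reads, which covers counting error only. FUT1 is lowest in HGC27 at -3.52 and ST6GAL1 is lowest in MKN45 at -5.18.

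Counting error was small beside most of these differences. The interval of the log2 FPKM ratio lay above 0 for 10 enzymes, below 0 for 9 and across 0 for 5 in HGC27, and the median distance from ratio to bound was 0.17. In MKN45 the numbers were 14, 16 and 5, and that distance was 0.13. These intervals hold no variation between cultures. The same counts over all measured genes are not given here, so nothing about a response of the enzymes is read from these numbers.

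ST6GAL1 had the lowest ratio of the 35 enzymes measured in MKN45. It was at 21.8 FPKM in vehicle MKN45, from 8966 reads, and at 0.602 FPKM after treatment, from 160 reads, a 36.3-fold lower level (log2 FPKM ratio -5.18, 95% counting interval -5.41 to -4.95). In HGC27 it was at 0.0695 and 0.00762 FPKM, from 25 and 2 reads, too few to measure a response there. The fit over both lines gave -1.96 ± 0.68 and did not pass (limma, Benjamini-Hochberg adjusted p = 0.0997), and it passed with library totals (adjusted p = 0.0289) and with limma-voom (adjusted p = 0.00223). The result therefore describes 1 treated and 1 vehicle library of MKN45.

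GCNT3, the core 2 and core 4 branching enzyme, was also lower in treated MKN45, at 12.0 against 92.5 FPKM, from 1856 and 22068 reads. That is 7.69-fold lower (log2 FPKM ratio -2.94, 95% counting interval -3.01 to -2.88), and even so GCNT3 still made up 78.6% of the family's summed level. In HGC27 it was carried by 8 and 2 reads. Its fit over both lines did not pass (-1.44 ± 0.54, limma, Benjamini-Hochberg adjusted p = 0.118), but it passed with library totals (adjusted p = 0.0381), with a floor of 10 FPKM (adjusted p = 0.0427) and with limma-voom (adjusted p = 0.00405). The HGC27 reads are too few to measure a response, so the GCNT3 result too describes 1 treated and 1 vehicle library of MKN45. In the same MKN45 libraries the gastric secretory markers TFF1 and TFF2 were at 24.2 and 11.6 FPKM and at 13.7 and 2.34 FPKM in vehicle and treated cells. The 8 gastric markers summed to 42.9 and 16.3 FPKM. The intestinal markers went the other way, with sums of 27.0 and 32.4 FPKM, as did the epithelial markers, with 1622 and 2902 FPKM. The part of these markers in the GCNT3 and ST6GAL1 values was not tested.

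Among the alpha2,3-sialyltransferases, ST3GAL1 (chr8:133454848-133571940), which caps core 1, was at 2.45 and 4.72 in HGC27 and 3.94 and 7.40 FPKM in MKN45. It was 1.93-fold higher after treatment in HGC27 and 1.88-fold higher in MKN45, with no call (fitted change 0.75 ± 0.29, limma, Benjamini-Hochberg adjusted p = 0.126). ST3GAL2 (chr16:70375978-70439237), a relative that acts on core 1 and gangliosides, was at 0.852 and 1.33 in HGC27 and 2.77 and 0.366 FPKM in MKN45. ST3GAL1 thus had like values in both lines, and ST3GAL2 was 1.56-fold higher in treated HGC27 and 7.58-fold lower in treated MKN45, with counting intervals of the log2 FPKM ratio from 0.40 to 0.88 and from -3.26 to -2.60.

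ST3GAL4 was 1.69-fold higher in treated HGC27 (5.45 and 9.19 FPKM) and at 3.38 and 3.02 FPKM in MKN45, where the counting interval held 0. ST3GAL5, the GM3 ganglioside synthase, was at 0.734 and 2.60 FPKM in HGC27, a 3.54-fold higher level from 386 and 999 reads, and below 1 FPKM in both MKN45 libraries (0.240 and 0.0309 from 144 and 12 reads, 7.76-fold lower after treatment). The ST3GAL family summed to 10.3 and 18.3 FPKM in HGC27, whereas in MKN45 it was 10.4 and 10.8 FPKM with ST3GAL1 supplying 37.8% and 68.3% of it.

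Among the ST6GALNAC enzymes, ST6GALNAC4 (chr9:127907886-127917038), which turns sialyl-T into disialyl-T, was at 7.15 and 2.56 in HGC27 and 8.58 and 7.72 FPKM in MKN45. It was 2.79-fold lower in treated HGC27 (counting interval -1.74 to -1.22), and in MKN45 the interval held 0 (-0.32 to 0.01). ST6GALNAC1, the sialyl-Tn synthase, was 1.35-fold lower in treated MKN45, with a fit of -0.20 ± 0.30. Neither passed over both lines, and whether the 2 lines differ in response could not be tested with 4 libraries.

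FUT4 and B3GNT3, the highest fucosyltransferase and the highest B3GNT enzyme in MKN45, were 1.29-fold and 1.26-fold higher there after treatment, and neither passed (fitted changes 0.12 ± 0.29 and 0.16 ± 0.29). FUT8 was 1.34-fold lower in HGC27 and 2.03-fold lower in MKN45 and did not pass (-0.62 ± 0.30, limma, Benjamini-Hochberg adjusted p = 0.201). The antisense gene FUT8-AS1 was at 1.93 and 0.221 FPKM in vehicle and treated MKN45, and its reads cannot be told apart from those of FUT8 without a stated strand. The FUT family summed to 66.5 and 66.4 FPKM in vehicle and treated MKN45 and to 13.3 and 9.48 FPKM in HGC27.

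Several low enzymes also differed between treated and vehicle libraries, and they are named here after their values were seen. GALNT16, a GalNAc-transferase below the level needed for the test, was at 1.41 and 0.230 in HGC27 and 0.942 and 0.198 FPKM in MKN45, from 520, 62, 398 and 54 reads. It was thus lower in the treated library of each line, by 6.12-fold and 4.77-fold. GALNT17 was at 1.22 and 0.165 FPKM in HGC27, from 193 and 19 reads, and had no reads in MKN45.

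GCNT1, a core 2 enzyme, was at 0.466 and 0.165 in HGC27 and 1.60 and 0.680 FPKM in MKN45, lower in both treated libraries. GCNT4, another core 2 enzyme, was at 1.10 and 1.16 in HGC27 and 0.194 and 1.01 FPKM in MKN45, where 42 and 142 reads gave a log2 FPKM ratio of 2.39 (95% counting interval 1.88 to 2.92). ST6GALNAC2, which sialylates core 1 and Tn, was at 1.94 and 0.601 FPKM in MKN45 and below 0.2 FPKM in HGC27. These members were too low over the 4 libraries for the limma fit, so none of these differences has a test.

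**Figure D4:**
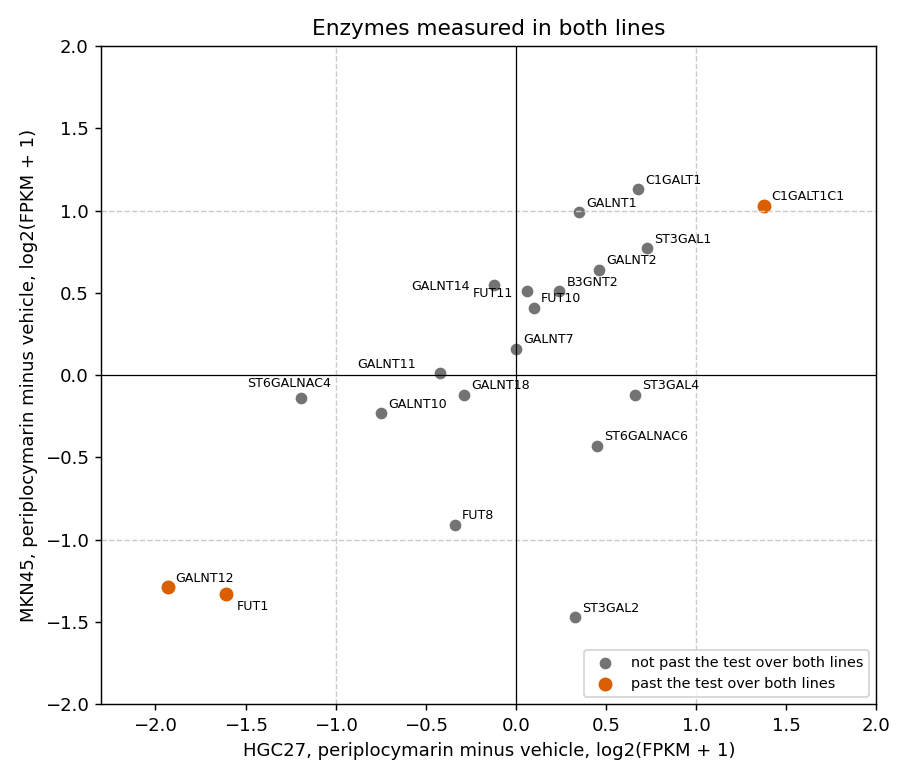
Periplocymarin minus vehicle on the log2(FPKM + 1) scale in HGC27 (x axis) and MKN45 (y axis) for the 20 enzymes measured in both lines, with dashed lines at differences of -1 and 1 and the 3 enzymes past the limma test in orange. GALNT12 and FUT1 lie at the lower left and C1GALT1C1 at the upper right, and ST3GAL2 lies at 0.33 in HGC27 and -1.47 in MKN45.

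Of the 20 enzymes measured in both lines, 15 had differences of the same sign (75.0%, beside 72.9% of the 10071 genes measured in both), a share near that of all genes. The plot of the paired differences shows that GALNT12, FUT1 and C1GALT1C1 were the enzymes past 1 in size in both lines.

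Over 8 lists of genes around these enzymes in the pathway, 4 of 80 tested genes passed the test for treatment, 2 rising and 2 falling (5.00%, beside 6.78% of all genes), which is near the background. Of 18 tested genes that make sugar donors, 0 passed in limma in either direction (median fitted change -0.15), with 3 at an unadjusted p under 0.05 and 2, GFPT1 and FPGT, called by limma-voom. GFPT1, the first enzyme of the hexosamine pathway, was at 35.8 and 15.5 in HGC27 and 38.6 and 21.6 FPKM in MKN45 and did not pass (limma, Benjamini-Hochberg adjusted p = 0.0627). GNPNAT1, also in this list, was at 36.2 and 28.0 in HGC27 and 26.9 and 27.1 FPKM in MKN45 (limma, Benjamini-Hochberg adjusted p = 0.717). CMAS, which activates sialic acid, was at 19.9 and 24.2 in HGC27 and 24.2 and 22.7 FPKM in MKN45.

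Of 10 tested Golgi sugar transporters, 1 rose (background 3.49%) and 0 fell (background 3.29%). The riser, SLC35D1, which carries UDP-glucuronic acid and UDP-N-acetylgalactosamine, was at 3.85 and 12.1 in HGC27 and 5.76 and 13.5 FPKM in MKN45 (fitted change 1.27 ± 0.29, limma, Benjamini-Hochberg adjusted p = 0.0365). Of 10 tested transferases that extend or cap the same chains, 1 rose (background 3.49%): B4GALT5, a galactosyltransferase known for lactosylceramide synthesis. It was at 6.77 and 28.1 in HGC27 and 17.3 and 43.3 FPKM in MKN45 (1.59 ± 0.29, adjusted p = 0.0253 in limma with Benjamini-Hochberg adjustment). In that list 5 genes had an unadjusted p under 0.05, and limma-voom also called B4GALT3 and B4GALT6. Within MKN45, 4 of its 12 measured genes were lower by at least 1 on the log2(FPKM + 1) scale, and 1 was higher. All measured genes had shares of 8.94% lower and 8.21% higher. Within HGC27, 1 of 9 was lower (background 10.4%) and 2 higher (background 9.72%). By the same measure in HGC27, 5 of 17 sugar donor genes were lower and 0 higher. Of 10 sialidases and lysosomal glycosidases there, 1 was lower and 3 higher. In MKN45 those lists had 0 of 18 past that difference, and 2 of 10 lower with 0 higher. These counts were not tested.

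Of 3 tested mucin core proteins, 1 fell (background 3.29%), MUC1, a membrane mucin that carries these glycans. It was at 3.89 and 1.10 in HGC27 and 58.9 and 24.3 FPKM in MKN45 (-1.23 ± 0.28, limma, Benjamini-Hochberg adjusted p = 0.0369). MUC13 was at 9.07 and 18.4 FPKM and MUC5AC at 4.87 and 2.38 FPKM in MKN45, both below 1 FPKM in HGC27 and without a call. Of 14 tested Golgi tethers and COG subunits 1 fell (background 3.29%). It was USO1 (p115), a vesicle tether (-1.13 ± 0.28, adjusted p = 0.0447 in limma with Benjamini-Hochberg adjustment). The 12 tested N-glycan enzymes, 10 sialidases and lysosomal glycosidases and 3 sulfotransferases had 0 calls in limma over both lines. At an unadjusted p under 0.05 the numbers were 1, 5 and 0, and limma-voom called 1, 1 and 0 of them, MAN1B1 and SIAE. Over all 12373 genes limma-voom called 850 higher and 664 lower. The share of all genes at an unadjusted p under 0.05 is not given here, so nothing is read from those counts. FPGT, MAN1B1, SIAE, B4GALT3 and B4GALT6 are named after their values were seen.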

How the data were processed

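The table holds 62710 Ensembl genes by 4 libraries. Its header names no unit, and from the values the authors deposited FPKM. Tools listed per the submitters' processing notes are fastp 2.0 and HISAT2 2.1.0, beside build hg38. Which program counted genes, with which annotation and strand setting, is not given in the sources used here. Symbols came from a gene-name reference for 62639 genes and from GENCODE 29 for 67. Positions, gene types and starting lengths came from GENCODE 29.

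Reads per gene were recovered from the FPKM steps: 15204 of 30457 genes above 0 were whole at the GENCODE 29 length (49.9%, tolerance 0.0001 reads), and with searched lengths 25901 of 25904 genes above 0 in at least 2 libraries were. Implied library sizes over recovered totals were 1.2, 0.945, 1.01 and 0.861 (vehicle and treated HGC27, vehicle and treated MKN45), so the deposited FPKM were taken to carry a composition factor, an inference. Reads gave depth, Clopper-Pearson 95% intervals and an alternative test, and no main result.

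limma 3.58.1 (R 4.3.3, eBayes with trend) was fitted to log2(FPKM + 1) with line and treatment as terms, over genes averaging 1 FPKM or more and at least 10 recovered reads, with Benjamini-Hochberg adjusted p under 0.05 over 12373 genes. On simulated data with no change it called 1 of 12346 genes, and with 200 genes changed 4-fold it called 176 of them. The simulated reads had 1 fixed spread and the same change in both lines. The real fit takes its residual from the difference in response between lines, so these rates may not carry over to it. Within a line, genes averaging 1 FPKM or more over its libraries were called at a log2(FPKM + 1) difference of 1 or more, with no test. All p-values measure the spread between these libraries only.

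Described in full were enzymes past the test, those past that difference within a line and the highest of each family. From the pathway lists, genes past the test and at most 4 more per list, by mean FPKM, were described. The members, lists and rules were chosen with earlier results of these data known. Other settings tried were limma-voom on recovered reads with the implied library sizes, no block, no read minimum, a pseudocount of 0.1, a floor of 10 FPKM, no filter on low values, scaling to library totals, and quantile normalization.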

Additional observations from a re-analysis of the deposited data

Results flagged for a closer look

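ST3GAL2, the sialyltransferase of core 1 and gangliosides, was higher after periplocymarin in HGC27 (0.33) and lower in MKN45 (-1.47) on the log2(FPKM + 1) scale, a difference of 1.80 between the responses. ST6GALNAC6, the sialyltransferase of gangliosides and Lewis-type chains, was likewise higher in HGC27 (0.45) and lower in MKN45 (-0.43), a difference of 0.87. Both were picked out because, among enzymes measured in both lines, the lines moved in opposite directions with counting intervals away from 0 in each. ST3GAL5 and B3GNT8 did the same but were not measured in both lines: ST3GAL5 had 386 and 999 reads in HGC27 and 144 and 12 in MKN45, a difference of 1.32, and B3GNT8 had 4 and 13 and then 11 and 0 reads. The difference was not tested, because 4 libraries leave no degree of freedom for an interaction.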

How the results depend on the processing

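Over both lines 3 enzymes were called (1 higher, 2 lower). The number was 6 (1 higher, 5 lower) with library totals alone, 5 (1 higher, 4 lower) with limma-voom, 3 (2 higher, 1 lower) of 9 tested with a floor of 10 FPKM, and 1 (0 higher, 1 lower) with quantile normalization. It was 0 (0 higher, 0 lower) in limma without the line block and without the low-value filter, where 3 and 9 enzymes had an unadjusted p under 0.05. With limma-voom C1GALT1 was the enzyme called higher, and C1GALT1C1 was not called. Over all genes 51.5% of the calls were higher, against 23.9% with library totals, 56.1% with limma-voom, 37.4% with quantile normalization and 84.1% with a floor of 10 FPKM. The number called was 839 (432 higher, 407 lower), against 364 higher and 1159 lower with library totals, 850 and 664 with limma-voom, 1049 and 199 of 4454 tested with the floor, 226 and 379 with quantile normalization, and 755 and 734 with a pseudocount of 0.1. The fitted change of B3GNT3 turned from 0.16 to -0.02 with quantile normalization and that of FUT4 from 0.12 to -0.06 with library totals; neither was called.

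Between lines 22 enzymes were called (4 higher in HGC27, 18 lower), against 7 (0 and 7) of 9 tested with a floor of 10 FPKM, 7 (0 and 7) without the low-value filter and 14 (2 and 12) without the treatment block. Over all genes the calls were 2031 higher in HGC27 and 2425 lower of 12373. They were 786 and 1051 of 4454 with the floor, 440 and 647 of 32364 without the filter, and 847 and 1131 without the block. Within HGC27, 5 enzymes were past a difference of 1 on the log2(FPKM + 1) scale (2 higher, 3 lower): with quantile normalization or library totals 1 was higher, and with the floor 0 were (0 and 0). Within MKN45, 7 were (2 higher, 5 lower): 1 higher with quantile normalization (B3GNT5, with C1GALT1 and C1GALT1C1 both below 1), 0 higher and 9 lower with library totals, 4 (2 lower) with the floor, and 14 (4 higher, 10 lower) with a pseudocount of 0.1. Between the vehicle libraries 20 were (2 higher in HGC27, 18 lower): 4 higher without the filter, and 7 (0 and 7) with the floor. The floor tests fewer genes, and for the other settings the cause was not tested. No share of all genes is given for the within-line and vehicle counts at these settings, so nothing is read from them. Of the other settings tried for the enzyme counts of this section, 53 values stayed within 1.5 times.

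No paired analysis was possible because the labels give no replicate numbers, beyond the line block of the main fit. Leaving out a library leaves no residual degree of freedom, so no such test was made. Precision was limited by 1 library per line and treatment.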
